A study of Mus musculus with 3 samples.

Results

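The genes described here are 8 mRNAs that answer to glucocorticoid hormone, to fasting or to both: Nr3c1, Fkbp5, Tsc22d3, Sgk1, Tat, Lpin1, Pdk4 and Ddit4. They were found by gene symbol among the 23361 genes of the deposited tables, and all 8 were present with status OK in every library. They were chosen by name with the FPKM values of these same libraries already known, so their levels and differences are given as a description, without a test. The mRNA libraries came from the livers of C57BL/6J mice labelled male and 8 to 10 weeks old, all fasted for 12 h and all opened by laparotomy under chloral hydrate. The sham liver had no occlusion and was taken after 90 min. The warm ischemia (WI) sample had the vessels to the left and median lobes clamped for 90 min. The ischemia followed by reperfusion (IR) sample had the same 90 min of clamping and then 120 min of reperfusion. The study describes groups of 6 mice. How many of them gave RNA to each library is not stated. Each group has 1 library, so no difference between libraries has a replicate library to check it, and no unoperated or fed liver is among the samples.

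Glucocorticoids released from the adrenal gland enter hepatocytes and bind the glucocorticoid receptor, which an HSP90 chaperone complex holds ready in the cytoplasm. The occupied receptor moves to the nucleus and binds glucocorticoid response elements (GREs), palindromes of inverted half-sites. During fasting the same hormone acts beside glucagon, through CREB, beside low insulin, which releases FOXO1, and beside fatty acids, which activate PPARA. The liver then turns from burning glucose and building fat to making glucose, breaking down amino acids and oxidizing fatty acids.

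To show the DNA in front of these genes, the 250 bases before RefSeq start sites were read from build GRCm38.p6 (mm10, the build of the files). For 7 of the 8 genes 14 such windows were taken, Sgk1 and Tsc22d3 having several start sites each. No window of Nr3c1 was taken, so nothing is said here of the motifs in front of it. Searched on both strands, the full GRE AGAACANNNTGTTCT was found in 3 of 32851 windows of all genes (0.00913%). One of them was a window of Sgk1, at chr10:21993640-21993889 on the + strand, where the palindrome begins 189 bases before the start site. The half-site TGTTCT, which is also each arm of the palindrome, was in 16.1% of all windows. It was in 5 windows of these genes, 3 of Sgk1, 1 of Tsc22d3 and 1 of Lpin1. The FOXO motif TGTTTAC, in 3.17% of all windows, and the CRE motif TGACGTCA, in 1.55%, were in none of the 14. The first 3 windows below are those with the full GRE (Sgk1), with a half-site 185 bases before a start site of Tsc22d3 (chrX:140600523-140600772, - strand), and with a half-site 163 bases before a start site of Lpin1 (chr12:16610967-16611216, - strand). Capitals mark these motifs and, in Sgk1, a further half-site 242 bases before the start site.
Sgk1: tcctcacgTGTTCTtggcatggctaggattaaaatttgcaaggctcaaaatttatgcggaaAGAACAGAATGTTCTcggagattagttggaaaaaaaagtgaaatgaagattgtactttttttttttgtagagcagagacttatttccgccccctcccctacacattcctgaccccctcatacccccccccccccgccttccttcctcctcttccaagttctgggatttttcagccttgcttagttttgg
Tsc22d3: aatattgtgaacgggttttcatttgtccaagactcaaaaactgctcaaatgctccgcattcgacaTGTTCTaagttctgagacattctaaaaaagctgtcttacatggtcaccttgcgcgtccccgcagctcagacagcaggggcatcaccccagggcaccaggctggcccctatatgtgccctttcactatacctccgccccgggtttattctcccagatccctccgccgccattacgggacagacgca
Lpin1: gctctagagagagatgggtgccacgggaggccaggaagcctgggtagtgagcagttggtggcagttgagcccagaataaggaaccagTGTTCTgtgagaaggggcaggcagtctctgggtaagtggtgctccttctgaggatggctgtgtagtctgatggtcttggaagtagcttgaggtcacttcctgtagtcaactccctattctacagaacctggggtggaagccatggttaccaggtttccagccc

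The RefSeq start sites of Lpin1 and Fkbp5 lie outside the spans that the files give for these genes, so those windows need not be the front of the transcripts whose FPKM was deposited. The windows of Pdk4 (chr6:5496279-5496528, - strand), Ddit4 (chr10:59951771-59952020, - strand) and Fkbp5 (chr17:28486150-28486399, - strand) are shown because these genes, with Lpin1, differed most between the libraries. They held none of the searched motifs, which says only that these letters are not in these bases. GC content was 70.0% before Ddit4 and 68.0% before Fkbp5, against 58.8% before Pdk4, 44.8% in the Sgk1 window above and a median of 52.4% over all windows.
Pdk4: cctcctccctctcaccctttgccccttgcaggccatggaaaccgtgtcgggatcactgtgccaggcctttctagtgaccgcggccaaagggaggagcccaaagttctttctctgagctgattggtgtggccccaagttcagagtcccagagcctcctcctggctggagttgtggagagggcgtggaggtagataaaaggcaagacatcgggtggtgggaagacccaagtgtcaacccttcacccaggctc
Ddit4: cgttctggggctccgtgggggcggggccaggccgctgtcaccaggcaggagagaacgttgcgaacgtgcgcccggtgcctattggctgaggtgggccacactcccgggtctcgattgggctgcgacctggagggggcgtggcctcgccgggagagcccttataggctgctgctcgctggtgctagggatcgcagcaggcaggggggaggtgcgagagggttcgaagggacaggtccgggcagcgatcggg
Fkbp5: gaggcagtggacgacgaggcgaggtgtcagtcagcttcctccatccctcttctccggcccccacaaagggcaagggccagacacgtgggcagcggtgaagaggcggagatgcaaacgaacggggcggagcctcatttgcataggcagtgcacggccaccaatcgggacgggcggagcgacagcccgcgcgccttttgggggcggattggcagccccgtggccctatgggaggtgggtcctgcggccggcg

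Some properties of the libraries bear on all values. The summed FPKM was 475754 in sham liver, 487912 in WI liver and 712423 in IR liver. Genes with the status HIDATA (too many fragments) numbered 1 in sham liver, 1 in WI liver and 7 in IR liver. Alb, which had this status in every library, was listed at 0 and so added nothing to the sums. The sums, on which the TPM scale used here rests, may thus leave out more abundant genes in IR liver than in the others. Changes were taken on the scale of log2(FPKM + 1), which understates the change of low genes, over the 10792 genes that reached an FPKM of 1 in any library, all 8 genes among them. The median change over those genes lay between 0.02 and 0.05 in the 3 comparisons. Rescaling each library to the same sum (TPM) moved that median to -0.45 for IR against WI and for IR against sham, so counts of the 8 genes are given on both scales. The 95% bounds quoted after each FPKM are those of the files. They come from Cuffdiff's model of the fragment counts and hold no variation between mice, and the depth behind each gene is not known. Xist, transcribed from the inactive X chromosome, had an FPKM of 18.9 in sham liver, 20.1 in WI liver and 1.29 in IR liver. Eif2s3y of the Y chromosome was listed at 0 in the sham and WI samples and had 13.2 in IR liver, so the libraries labelled sham and WI go against the sex on their labels. The WI and sham samples were alike in these genes. In both comparisons with IR liver, reperfusion cannot be told apart from this difference or from the longer time after surgery.

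In WI liver, 4 of the 8 genes, Pdk4, Ddit4, Lpin1 and Fkbp5, were at 11.9% to 18.3% of their sham level. They parted in IR liver. Pdk4 and Ddit4 stood high again in IR liver, Fkbp5 stood between, and Lpin1 was as low as after ischemia. Sgk1 and Tat lay between 45.4% and 59.9% of sham in both other samples, with bounds that overlapped those of sham liver. The receptor gene Nr3c1 and Tsc22d3 had nearly the same FPKM in the sham and WI samples. These patterns are seen in the plot of FPKM for each gene by library.

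**Figure D1:**
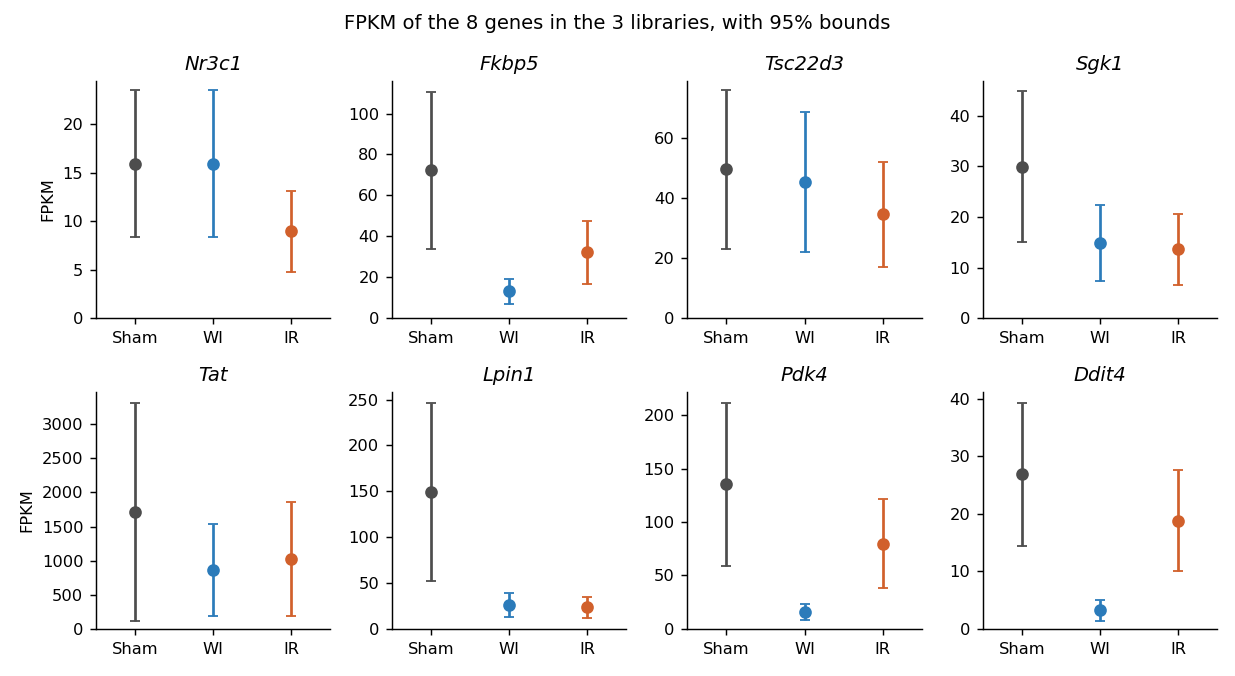
FPKM of each of the 8 genes (y axis, linear and starting at 0, with its own range in each panel) in the sham, WI and IR libraries (x axis); points are the deposited values and bars their 95% bounds, 1 library per group. The bounds of Fkbp5, Lpin1, Pdk4 and Ddit4 in WI liver lie wholly below those in sham liver, and Lpin1 alone also has IR bounds wholly below sham.

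Nr3c1 encodes the glucocorticoid receptor itself and lies on chromosome 18 of mm10 from 39410545 to 39487245. It had an FPKM of 15.96 in sham liver (95% bounds 8.37 to 23.5), 15.95 in WI liver (8.37 to 23.5) and 8.98 in IR liver (4.81 to 13.1). The WI level was 99.9% of sham, and the IR level was 56.3% of sham, with bounds that overlapped both. The change from WI to IR was -0.76 on the log2 scale (95% interval from the bounds -1.65 to 0.12), and -1.31 after rescaling to TPM.

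Fkbp5 encodes FKBP51, a co-chaperone of the receptor complex that lowers its affinity for hormone and is itself induced by the receptor, which closes a feedback loop. The gene spans 28399095 to 28486112 of chromosome 17. Its FPKM was 72.4 in sham liver (34.01 to 110.7), 13.2 in WI liver (7.09 to 19.3) and 32.2 in IR liver (16.6 to 47.7). The WI value was 18.3% of sham and the IR value 44.5%, and the WI bounds overlapped those of IR but not those of sham. The change was -2.37 from sham to WI (-3.34 to -1.39) and 1.22 from WI to IR (0.30 to 2.14), the second of which was 0.72 after rescaling to TPM.

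Tsc22d3 encodes GILZ, a leucine zipper protein that the receptor induces and that restrains NF-kB and AP-1. On chromosome X, from 140539529 to 140600522, it had an FPKM of 49.7 in sham liver (23.3 to 76.2), 45.5 in WI liver (22.3 to 68.8) and 34.6 in IR liver (17.02 to 52.2). All bounds overlapped, and the IR level was 69.6% of sham. Sgk1, a kinase that acts on ion channels and transporters and is induced by gluco- and mineralocorticoids, lies on chromosome 10 from 21882184 to 21999902, and the files join 6 start sites under its symbol. Its FPKM was 29.97 in sham liver (14.98 to 44.97), 14.8 in WI liver (7.38 to 22.3) and 13.6 in IR liver (6.63 to 20.6). The WI and IR samples were thus at 49.5% and 45.4% of sham. Between IR and sham the change was -1.08 (-2.06 to -0.10), past 2-fold, although the bounds of the single values overlapped.

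Tat encodes tyrosine aminotransferase, the first enzyme of tyrosine breakdown and a classical hormone-induced liver gene. It spans 109990436 to 109999804 of chromosome 8 and was the most abundant of the 8 mRNAs in every library. Its FPKM was 1713 in sham liver (113 to 3314), 864 in WI liver (189 to 1538) and 1027 in IR liver (190.4 to 1864). The bounds were wide, their coefficient of variation being 47.7% for sham, and all of them overlapped. The change from sham to WI was -0.99 (-2.74 to 0.77), just short of 2-fold. Between WI and IR it was 0.25, and -0.30 after rescaling to TPM.

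Lpin1 encodes lipin 1, a phosphatidate phosphatase of triglyceride synthesis that also acts in the nucleus with PPARA and PGC-1alpha in fasted liver. On chromosome 12, from 16535669 to 16589770, its FPKM was 149 in sham liver (51.8 to 246.7), 26.1 in WI liver (12.8 to 39.4) and 23.6 in IR liver (11.8 to 35.3). The sham liver stood alone, and both other samples lay below its bounds, at 17.5% and 15.8% of its level. The change was -2.47 from sham to WI (-3.64 to -1.30), -0.14 from WI to IR (-1.13 to 0.85) and -2.61 from sham to IR (-3.78 to -1.45). The study also amplified Lpin1 by qPCR. It reports that qPCR bore out the expression changes of its selected genes, and gives no Lpin1 value in its text. The primers are shown because they place that assay within the gene. In build NCBIM37, an older one than that of the files, the forward primer lies at chr12:16575291-16575311 on the - strand, the strand of the gene, and the reverse primer at chr12:16572416-16572436 on the + strand. Each lies within a coding exon and matches all 3 protein-coding Lpin1 transcripts of that annotation.
Forward primer: ggccctcaacaccaaaaagtg
Reverse primer: cgctgtgaatggcctgaaaat

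Pdk4 encodes pyruvate dehydrogenase kinase 4, which shuts the entry of pyruvate into the citric acid cycle and so spares glucose in fasting. Its FPKM, on chromosome 6 from 5483351 to 5496278, was 135 in sham liver (59.2 to 211.7), 16.1 in WI liver (8.62 to 23.5) and 79.8 in IR liver (38.05 to 121.6). The WI liver stood alone below both others, at 11.9% of sham, and the bounds of IR and sham overlapped. The change was -3.00 from sham to WI (-4.02 to -1.98), 2.24 from WI to IR (1.27 to 3.22) and -0.76 from sham to IR (-1.85 to 0.34).

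Ddit4 encodes REDD1, a brake on the growth kinase complex mTORC1 that both glucocorticoids and low oxygen are known to induce. It lies on chromosome 10 from 59949675 to 59951770. The FPKM was 26.9 in sham liver (14.4 to 39.3), 3.22 in WI liver (1.34 to 5.09) and 18.8 in IR liver (10.1 to 27.6). Here too WI liver alone was low, at 11.97% of sham, while IR liver was at 70.1%. The change was -2.72 from sham to WI (-3.63 to -1.82), 2.23 from WI to IR (1.33 to 3.14) and -0.49 from sham to IR (-1.40 to 0.42). After rescaling to TPM the last value was -1.07, past 2-fold, and for Pdk4 it was -1.34.

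Counted over the group, 4 of the 8 genes fell at least 2-fold from sham to WI and 0 rose. Over all 10792 genes, 1.10% fell by as much. On the TPM scale 6 of the 8 fell, with Sgk1 at -1.03 and Tat at -1.02 added, where 1.68% of all genes fell. For Pdk4, Ddit4, Lpin1 and Fkbp5 the WI bounds lay wholly below the sham bounds, which held for 0.482% of all genes. Ranked from the largest fall, Pdk4 was at place 6 of 10792, Ddit4 at 8, Lpin1 at 10 and Fkbp5 at 12. The genes were chosen with these falls in view, so their place is no evidence about glucocorticoid or fasting genes in general.

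From WI to IR, 3 of the 8 genes rose at least 2-fold (Pdk4, Ddit4 and Fkbp5) and 0 fell, where 5.78% of all genes rose by as much. The bounds of Pdk4 and Ddit4 did not overlap, as for 3.22% of all genes in that direction. On the TPM scale 2 of the 8 rose, Fkbp5 no longer passing, and 1 fell (Nr3c1), where 3.57% of all genes rose and 11.0% fell. Between IR and sham, 3 of the 8 fell (Lpin1, Fkbp5 and Sgk1) and 0 rose, where 2.15% of all genes fell by as much. Bounds did not overlap for Lpin1, as for 1.12% of all genes. After rescaling to TPM, all 8 were at least 2-fold lower in IR liver than in sham, as were 14.4% of all genes. Over all genes, 577 were 2-fold higher in IR and 232 lower as deposited, against 319 higher and 1554 lower on the TPM scale. With libraries scaled instead by the median ratio of their genes, 3 of the 8 were 2-fold lower in IR than in sham. On that scale 529 of all genes were 2-fold higher and 273 (2.53%) lower. The comparisons share libraries, so a low value in the WI library alone would appear in both the fall and the rise. The plot of changes with their intervals shows the 3 comparisons side by side.

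**Figure D2:**
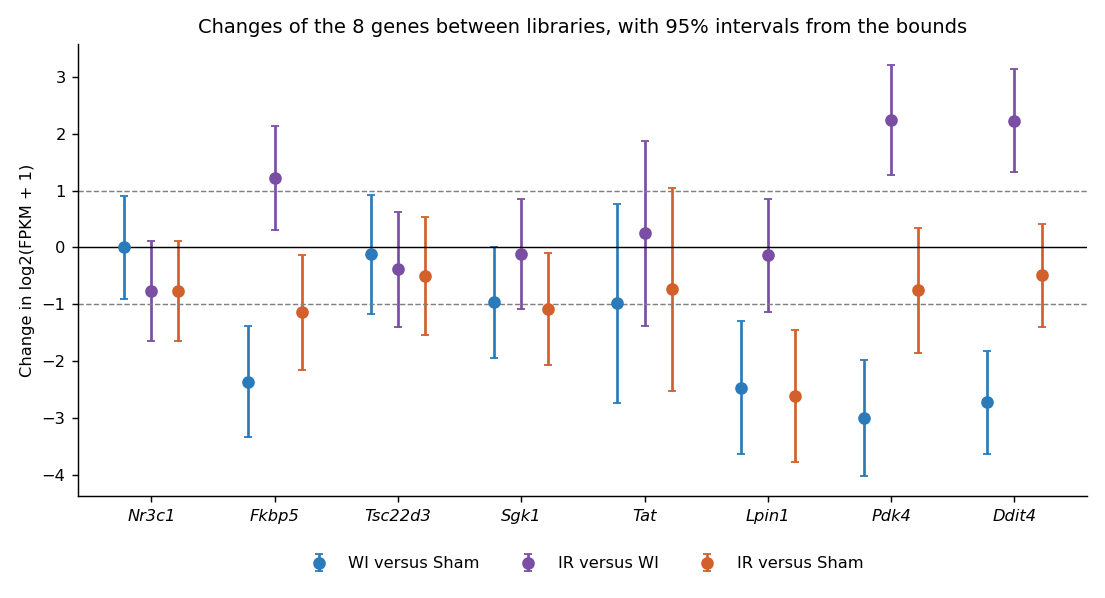
Change in log2(FPKM + 1) of the 8 genes (x axis) for WI against sham, IR against WI and IR against sham; bars are 95% intervals derived from the bounds of the files, dashed lines mark 2-fold, and each library is 1 per group. Fkbp5, Pdk4 and Ddit4 lie below the lower line for WI against sham and above the upper line for IR against WI, whereas Lpin1 lies at -0.14 for IR against WI.

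FPKM is scaled for transcript length, so levels may be ordered between genes. In sham liver the order from the highest FPKM was Tat, Lpin1, Pdk4, Fkbp5, Tsc22d3, Sgk1, Ddit4 and Nr3c1, and the bounds of every pair of neighbours overlapped. In WI liver Tat was followed by Tsc22d3, Lpin1, Pdk4, Nr3c1, Sgk1, Fkbp5 and Ddit4. Only Tat and Ddit4 were set off from their neighbours there by bounds that did not overlap. In IR liver Pdk4 came second behind Tat, and then Tsc22d3, Fkbp5, Lpin1, Ddit4, Sgk1 and Nr3c1. Among the 10792 genes, Ddit4 lay at percentile 82.0 of sham liver, at 32.7 of WI liver and at 74.1 of IR liver.

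Each gene was then set beside its relatives. Of the lipins, Lpin2 had an FPKM of 93.4 in sham liver (37.7 to 149), 58.3 in WI liver (26.1 to 90.4) and 45.5 in IR liver (20.5 to 70.6), a change of -0.67 from sham to WI and -1.02 from sham to IR against -2.47 and -2.61 for Lpin1. Lpin3 was scarce, between 1.04 and 1.81. Among the pyruvate dehydrogenase kinases, Pdk1 had 25.7, 26.2 and 12.7 and Pdk2 had 32.5, 38.1 and 26.4 in the sham, WI and IR livers. Neither passed 2-fold as deposited, and Pdk3 stayed under 1 in every library. In sham liver Pdk4 was above Pdk1 and Pdk2 with bounds apart from both, and in WI liver it lay below both with overlapping bounds. As deposited, no subunit of the pyruvate dehydrogenase complex on the list (Pdha1, Pdhb, Dlat, Pdhx and Dld) changed 2-fold. Of all genes, 1.85% did for WI against sham, 7.21% for IR against WI and 7.50% for IR against sham. On the TPM scale 4 of the 9 other genes of the complex and its kinases, and 11.0% of all genes, were 2-fold lower in IR than in WI.

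Of 10 other FK506-binding proteins that passed the filter, 0 changed 2-fold in any comparison as deposited. Few of any 10 genes would, since 1.85% of all genes changed so far for WI against sham, 7.21% for IR against WI and 7.50% for IR against sham. On the TPM scale 1 was 2-fold lower in IR than in sham, as were 14.4% of all genes. Fkbp4, whose product FKBP52 competes with FKBP51 for the receptor complex, had an FPKM of 36.7 in sham liver (19.4 to 54.1), 63.3 in WI liver (32.1 to 94.4) and 52.5 in IR liver (27.1 to 77.9). In sham liver Fkbp5 was above Fkbp4, and in the WI and IR samples below it, with overlapping bounds in the sham and IR samples only. Among the TSC22 family, Tsc22d2 was at 3.06 in sham liver (1.62 to 4.497), 2.22 in WI liver (1.14 to 3.29) and 10.8 in IR liver (5.68 to 15.9). Sgk2 had 7.92, 11.7 and 11.95 and Sgk3 had 3.03, 2.77 and 2.09, all within overlapping bounds. Nedd4l, a ubiquitin ligase that SGK1 phosphorylates, was at 3.34 in sham liver, 1.58 in WI liver and 9.19 in IR liver. Of the other enzymes of tyrosine breakdown, Hpd, Hgd, Gstz1 and Fah did not change 2-fold, and their changes from sham to WI lay between 0.03 and 0.37, where the change of Tat was -0.99.

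**Figure D3:**
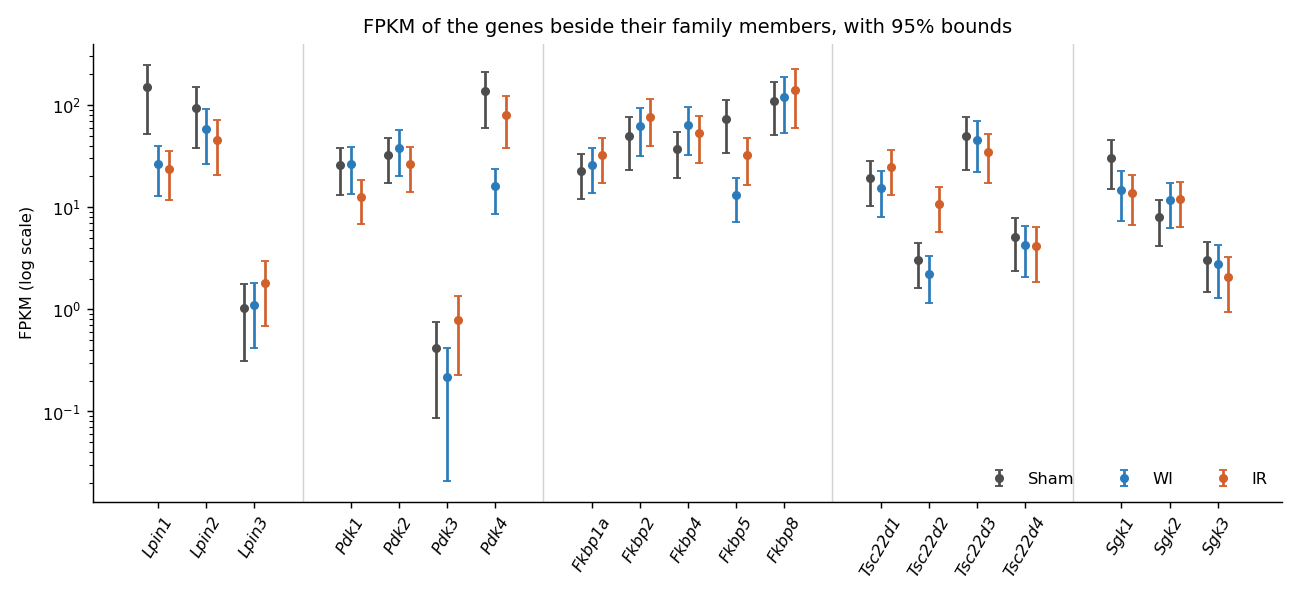
FPKM (y axis, log scale) of Lpin1, Pdk4, Fkbp5, Tsc22d3 and Sgk1 beside members of their families in the sham, WI and IR libraries; bars are the 95% bounds of the files, 1 library per group. Lpin1 and Pdk4 stand above their relatives in sham liver, and in WI liver Pdk4, at 16.1, lies below Pdk1, at 26.2, and Pdk2, at 38.1.

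Ddit4 was also read with other genes that restrain mTORC1 or, as the Eif4ebp genes do, inhibit translation downstream of it. Of 10 that passed the filter, 1 fell 2-fold from sham to WI (2 on the TPM scale). Of all genes 1.10% fell so far, and 1.68% on the TPM scale. The 1 of the 10 as deposited was Eif4ebp3, with an FPKM of 78.9 in sham liver (41.7 to 116), 15.2 in WI liver (7.81 to 22.6) and 118 in IR liver (60.7 to 175.7). Sesn2 was at 5.17, 2.20 and 3.63 in the sham, WI and IR livers, short of 2-fold on the log2(FPKM + 1) scale. Between WI and IR, 2 of the 10 rose 2-fold (Eif4ebp3 and Eif4ebp1) and 1 fell, where 5.78% of all genes rose and 1.43% fell. On the TPM scale 1 rose and 2 fell, where 3.57% of all genes rose and 11.0% fell. The fall as deposited was that of Deptor, an inhibitor bound to mTOR, at 19.5 in sham liver (9.24 to 29.8), 23.5 in WI liver (11.4 to 35.5) and 9.22 in IR liver (4.07 to 14.4). As deposited, no listed gene acting on mTORC1 itself, Ddit4 aside, fell 2-fold from sham to WI or rose 2-fold from WI to IR. Tsc1 and Tsc2 differed by at most 0.35 in any comparison.

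The receptor's partners include chaperones, coactivators and corepressors. Of 16 partners other than Nr3c1 and Fkbp5, 1 rose 2-fold from sham to WI, as did 0.751% of all genes, and 0 fell. The median change was 0.15 against 0.02 for all genes. The 1 that rose was Nr0b2, encoding the repressor SHP, at 11.6 in sham liver (5.75 to 17.5), 30.02 in WI liver (16.1 to 43.96) and 5.99 in IR liver (2.65 to 9.32). Between WI and IR, 3 of the 16 rose 2-fold and 1 fell (Nr0b2), where 5.78% of all genes rose and 1.43% fell. The chaperone gene Hsp90aa1 was at 36.7 in WI liver (19.1 to 54.2) and 255.9 in IR liver (97.0 to 414.9). Hsp90ab1 was at 214 and 459 and Hspa8 at 528 and 1424, both with overlapping bounds. Hspa4, Stip1, Ptges3, Ppid, Bag1 and Fkbp4 did not change 2-fold. On the TPM scale Hsp90aa1 was the only partner still 2-fold higher than in WI liver. The coactivator genes Ncoa1, Ncoa2 and Ncoa3 and the corepressor gene Ncor1 did not change 2-fold as deposited. On the TPM scale 4 of the 16 partners, and 14.4% of all genes, were 2-fold lower in IR than in sham. Of 6 genes that set hormone supply, 1 rose 2-fold from sham to WI (Serpina6), as did 0.751% of all genes. From WI to IR 1 rose (H6pd) and 2 fell (Serpina6 and Abcb1a), where 5.78% of all genes rose and 1.43% fell. On the TPM scale 0 rose and 3 fell, where 3.57% of all genes rose and 11.0% fell. H6pd was at 59.6, 66.1 and 136.2 in the sham, WI and IR livers, and Abcb1a at 3.95, 6.76 and 2.36. Hsd11b1, whose enzyme regenerates active hormone inside hepatocytes, was at 474, 536 and 544 in the same order. Serpina6, encoding the plasma carrier of corticosteroids, was at 236 in sham liver (106 to 366), 491 in WI liver (187 to 795) and 218 in IR liver (99.6 to 337), and its WI bounds overlapped both others.

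Other genes that glucocorticoids are known to induce were taken from a list of 25, of which 24 passed the filter. This list and the fasting and lipogenic lists that follow were chosen with earlier results of these data known. Their counts are therefore a description, and no evidence about such genes in general. From sham to WI, 9 of the 24 fell 2-fold and 1 rose, and the falls numbered 10 on the TPM scale. Of all genes, 1.10% fell so far and 0.751% rose, and 1.68% fell on the TPM scale. Of the 24, 23 lay lower, with a median change of -0.83 against 0.02 for all genes. The falls included Cdkn1a, a cell cycle inhibitor, from 21.5 (11.4 to 31.6) to 0.619 (0.161 to 1.08), the metallothionein Mt2, from 1493 to 359, and the transcription factor Zbtb16, from 7.93 (4.26 to 11.6) to 1.64 (0.770 to 2.52). Fam107a was at 1.19 in sham liver and 0.0299 in WI liver, where its lower bound was 0. The rise was that of Bcl6, a transcriptional repressor, from 1.52 (0.633 to 2.41) to 5.196 (2.68 to 7.72).

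From WI to IR, 9 of the 24 rose 2-fold and 0 fell, against 7 and 3 on the TPM scale, where the list's median of 0.87 became 0.34 while that of all genes became -0.45. Over all genes 5.78% rose and 1.43% fell as deposited, and 3.57% rose and 11.0% fell on the TPM scale. Some IR levels were above those of sham. Cebpd, an acute phase transcription factor, was at 9.64 in sham liver (4.57 to 14.7), 3.20 in WI liver (1.07 to 5.33) and 32.8 in IR liver (16.99 to 48.5). Its IR bounds lay above those of sham. Mt2 was at 4713 (1285 to 8140) and Cdkn1a at 47.5 (25.1 to 69.9) in IR liver, both with bounds that overlapped those of sham. Between IR and sham, 7 of the 24 were 2-fold higher and 2 lower (G6pc and Mertk), with a median of -0.02. These counts were 4 and 5 on the TPM scale. Of all genes, 5.35% were higher and 2.15% lower as deposited, and 2.96% were higher and 14.4% lower on the TPM scale.

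Of 27 other genes known to rise in fasting, 4 of them on the list before, 7 fell 2-fold from sham to WI (8 on the TPM scale) and 0 rose, with a median of -0.66. By comparison, 1.10% of all genes fell so far, and 1.68% on the TPM scale. Plin5, a lipid droplet protein of oxidative tissue, went from 58.6 (27.3 to 89.9) to 8.53 (4.35 to 12.7), and the acyl-CoA thioesterase Acot1 from 107 (54.5 to 160) to 19.9 (10.6 to 29.2). The omega-hydroxylase Cyp4a10, a PPARA target, went from 543.5 to 168. Acot1 and Cyp4a10 have near-identical copies with which reads may be shared. Pck1, the key enzyme of gluconeogenesis, was at 1483, 1132 and 1238 in the sham, WI and IR livers, with no 2-fold change. G6pc, which releases free glucose, was at 335, 152 and 78.1, with a change of -1.13 from sham to WI and -2.09 from sham to IR. From WI to IR 10 of the 27 rose 2-fold and 0 fell (6 and 4 on the TPM scale), with Asns, Eif4ebp3 and Angptl4 among those that rose. Among all genes 5.78% rose and 1.43% fell, or 3.57% and 11.0% on the TPM scale. Of 12 fasting regulators, 0 changed 2-fold from sham to WI, against 1.85% of all genes. The lowest change was that of Foxo1, from 15.2 to 7.92. Ppara was at 41.2, 43.2 and 17.2 in the sham, WI and IR livers, a change of -1.28 from WI to IR. Between IR and sham it was the 1 regulator of 12 past 2-fold, against 6 on the TPM scale, all of them lower. Of all genes 2.15% fell so far, and 14.4% on the TPM scale.

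Lipogenic genes, which feeding and insulin induce, lay on the other side. All 12 that passed the filter, of 13 listed, were higher in WI liver than in sham, 4 of them past 2-fold, with a median of 0.57, although the bounds overlapped for each of the 12. Over all genes 0.751% rose past 2-fold. Fasn, the fatty acid synthase, was at 24.3 in sham liver, 74.3 in WI liver and 31.9 in IR liver. The other 3 past 2-fold were Elovl6, Acly and Srebf1. From WI to IR all 12 were lower, 3 past 2-fold (10 on the TPM scale), with a median of -0.61. Falls past 2-fold made up 1.43% of all genes, and 11.0% on the TPM scale. The plot of the related lists sets these changes side by side.

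**Figure D4:**
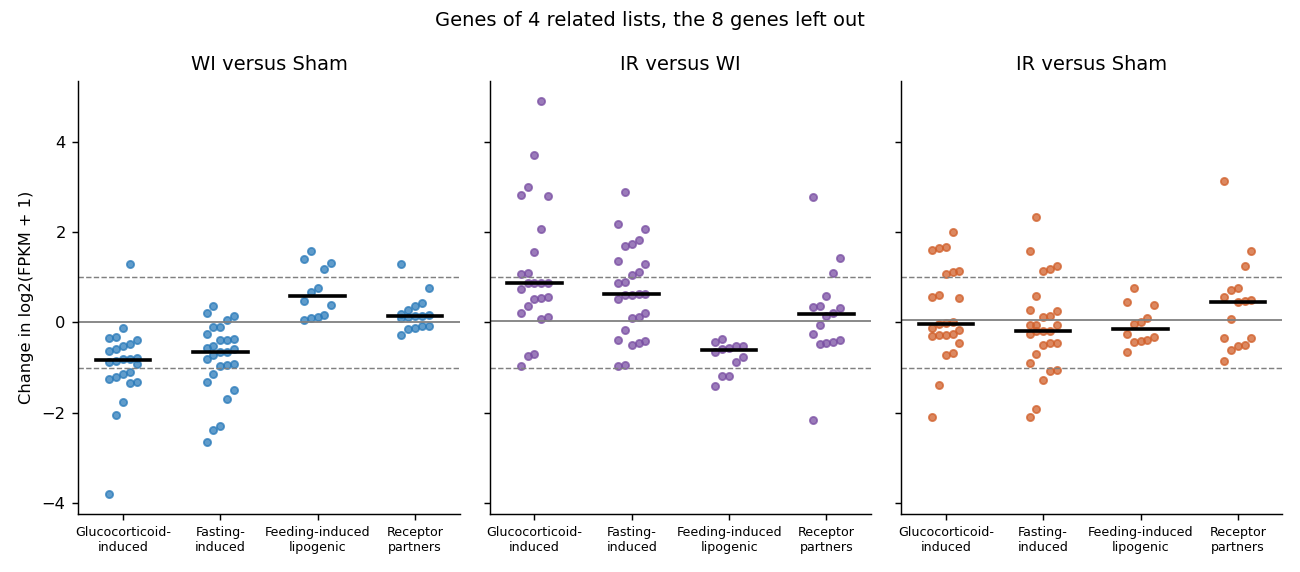
Change in log2(FPKM + 1) of the genes on 4 lists (x axis), the 8 genes themselves left out, for the 3 comparisons; each point is a gene, black bars are list medians, the grey line is the median of all 10792 genes and dashed lines mark 2-fold. From sham to WI the medians are -0.83 for glucocorticoid-induced genes, -0.66 for fasting-induced genes and 0.57 for lipogenic genes; from WI to IR they are 0.87, 0.64 and -0.61, and on the TPM scale the IR values lie lower throughout.

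The genes whose pattern over the 3 libraries was most like that of a member were found as the smallest distance between centred log2(FPKM + 1) values, among 6596 genes that reached an FPKM of 5 in any library. Over 3 libraries many genes share a pattern, and likeness is no more than a description. Pdk4 and Ddit4 were each other's closest gene, at a distance of 0.22. For both, Plin5 and Acot1 came next, at 0.63 to 0.68. Those same genes were closest to Fkbp5, Acot1 at 0.06 and Plin5 at 0.20, followed by Zbtb16 at 0.45. Nearest to Lpin1 were Cyp3a41a at 0.27, Cyp3a44 at 0.39 and Cd163 at 0.50. The Cyp3a genes are near-identical copies between which the counting could divide reads. Cd163, a hemoglobin scavenger receptor of macrophages, was at 16.2 in sham liver, 4.02 in WI liver and 2.84 in IR liver. Sgk1 had its closest genes in Il6ra (0.02), Ppip5k2 (0.05) and Trp53inp2 (0.06). Il6ra, the interleukin 6 receptor, was at 29.8, 14.5 and 13.5 FPKM where Sgk1 was at 29.97, 14.8 and 13.6.

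The samples are whole liver, and in bulk RNA fewer cells of a type cannot be told apart from less RNA per cell. Of the hepatocyte markers, Alb was listed at 0 with the status HIDATA in every library, which Cuffdiff assigns to loci with too many fragments. Apoa1, Ttr, Cps1, Hnf4a and Cyp2e1 were abundant. As deposited 0 of these 5 fell 2-fold in any comparison, where 1.10% to 2.15% of all genes did. On the TPM scale 1 fell, for IR against sham, as did 14.4% of all genes. From WI to IR 1 of the 5 rose 2-fold as deposited (Apoa1, from 4239 to 8799), where 5.78% of all genes rose. On the TPM scale 0 rose. All 5 Kupffer cell markers lay lower in WI liver than in sham, 1 of them past 2-fold, where 1.10% of all genes fell so far. Their summed FPKM went from 239.7 to 131.0 and then to 79.3 in IR liver. From WI to IR 4 of the 5 fell again, while Marco, at 20.9 in sham liver, went from 12.6 to 25.3. The 5 endothelial markers also lay lower in WI liver, 1 past 2-fold against the same 1.10% of all genes. Their sum was 111.0 in sham liver, 80.1 in WI liver and 92.5 in IR liver. Without Lyve1, which went from 2.73 in WI liver to 33.4 in IR liver, the other 4 summed to 99.9, 77.3 and 59.1. Neutrophil markers, 3 of 4 of which were in the files, summed to 22.5, 17.3 and 415 in the sham, WI and IR livers, Mpo being at or near 0 in each. The 5 leukocyte markers summed to 9.78, 7.44 and 6.28, the 5 stellate cell markers to 143.5, 101.8 and 105.03, the 4 cholangiocyte markers to 2.48, 3.29 and 6.92, and the erythroid markers, 4 of 5 in the files, to 1018, 693 and 2719. The part of these shifts in the values of the 8 genes was not tested.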

How the data were processed

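RNA of 1 library per group (sham, WI, IR) was sequenced on an Illumina HiSeq2000. The authors mapped read pairs to mm10 with TopHat2 2.0.9 and made the deposited FPKM values, 95% bounds and status with Cuffdiff (Cufflinks 2.0.2) at default settings. FPKM was put on the log2 scale with a pseudocount of 1 and compared over the 10792 genes that reached an FPKM of 1 in any library. With 1 library per group no test was made. A 2-fold difference in FPKM + 1, or bounds that did not overlap, stood in its place. Intervals of changes were propagated from the upper bounds. The 8 genes and the gene lists were chosen with earlier results of these data known. Named were the 8 genes, list genes past 2-fold, paralogs and receptor partners, and the 3 closest genes to each member past 2-fold. Pdk3, Sesn2, Tsc1, Tsc2, Pck1, Foxo1 and Hsd11b1, and the other list genes named short of 2-fold, were named after their values were seen. File starts count from 0 and were raised by 1, which gave the RefSeq gene start for 5 of the 8. Promoters came from RefSeq (GRCm38.p6), primers from the study's primer list placed on NCBIM37. Motifs were chosen after the data were seen. Scripts were tested on simulated data. Python 3.11.15, numpy 2.4.6, pandas 2.3.3 and matplotlib 3.10.9 were used. The alternatives were other pseudocounts, scalings, filters, fold thresholds and 99% bounds. Some genes of the lists are not reported here by name.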

Additional observations from a re-analysis of the deposited data

How the results depend on the processing

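All 24 changes of the 8 genes moved by less than their 95% interval under the other pseudocounts and scalings, although that of Tat from WI to IR, 0.25, became -0.30 on the TPM scale. The number of the 8 genes past 2-fold between IR and sham, 3 as reported, was 8 on the TPM scale and 6 at a 1.5-fold threshold. With bounds at 99%, 1 gene between IR and WI (2 at 95%) and 0 between IR and sham (1 at 95%) had bounds that did not overlap. Over all genes, the counts past 2-fold were 200 for WI against sham, 778 for IR against WI and 809 for IR against sham. In that order these counts were 382, 1239 and 1429 with a pseudocount of 0.1, 435, 1309 and 1480 with none, and 800, 2132 and 2572 at 1.5-fold. On the TPM scale the last 2 were 1570 and 1873. TPM divides the IR values by a larger sum, which lowers them by construction. By direction, 119 genes fell from sham to WI, and 181 on the TPM scale. From WI to IR 624 rose and 154 fell, against 385 and 1185 on the TPM scale. Other total counts, of the 8 genes and of all genes, stayed within 1.5 times. The gene lists were rescaled after seeing the data. With 1 library per group no replicate could be left out. No paired analysis was possible because each group has a single library.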
